A study of Rattus norvegicus with 12 samples.

Results

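Semi-rigid and rigid fixation of a broken femur were compared in young rats, at the fracture hematoma 3 days after surgery. The comparison used 6 of the 12 arrays in the series, chosen by their titles: 3 of young rats with a semi-rigid fixator (YSR) and 3 of young rats with a rigid fixator (YR). All were Sprague-Dawley rats with a midshaft osteotomy of the left femur, held open to a gap of 1.5 mm by an external fixator. The YSR and YR rats were 12 weeks old, and the sides differed in the distance between fixator and bone, 15 mm in YSR and 7.5 mm in YR. The other 6 arrays came from rats of 52 weeks, 3 semi-rigid (OSR) and 3 rigid (OR). Each array held RNA pooled from 3 animals, so that the 3 arrays of a group stood for 9 rats, and the spread between arrays is a spread between pools.

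The fracture hematoma is the blood clot that fills the gap after a bone breaks. Platelets, neutrophils and macrophages act in it first, and fibroblasts, new vessels and bone-forming cells grow in from the marrow, periosteum and muscle around it. The stiffness of the fixator sets how far the bone ends move under load, and this movement is known to shape the tissue that forms in the gap.

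Expression was measured on 1-colour Affymetrix rat arrays, on which a probe set is a group of short probes for 1 transcript. Values are log2 of the array signal, so that a difference of 1 is a doubling, and levels of different probe sets are not comparable. After removal of 57 control probe sets, 31042 were tested, and 12244 of them were called bright because their mean log2 signal over the 6 young arrays was at least 8. At that limit the nearest bright probe sets had means of 8.0002 (Slc37a1) and 8.0003 (Adgrd1), and the nearest left out had 7.9998 (Ccdc174) and 7.9996 (a probe set without a gene symbol).

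Marker genes of cell types were set beside the label hematoma. Their brightness is not a test of that label, since levels of different probe sets are not comparable. All 22 measured macrophage markers, 8 of 9 erythroid markers and 10 of 14 neutrophil markers were bright, and so were 19 of 20 skeletal muscle markers and all 23 markers of fibroblasts and collagen matrix. Over all 14217 genes, 8293 were bright. Other lists had few bright members, with 4 of 16 for T and NK cells, 2 of 8 for B cells and plasma cells, 0 of 9 for mast cells and 2 of 12 for cartilage. The tissue thus held RNA of several cell types, and in such a mixture fewer cells of a type and less RNA per cell cannot be told apart.

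RNA quality differed between the young arrays. The array carries probe sets at the 3' and the 5' end of Gapdh and beta-actin, and their ratio rises as RNA is broken down. The log2 ratio for Gapdh was 6.69, 0.33 and 0.42 on YSR arrays 1, 2 and 3 and 1.02, 1.59 and 1.38 on the YR arrays. For beta-actin it was 6.88, 1.45 and 1.06 in YSR and 1.79, 2.06 and 1.77 in YR. By these ratios YSR array 1 had the most degraded RNA of the 12 arrays, the YR arrays were intermediate, and YSR arrays 2 and 3 had the best preserved RNA of the 6. In the old rats the Gapdh ratio was 2.96 on OR array 1 and lay between 0.33 and 0.49 on the other 5 arrays. YSR array 1 deviated by more than 1 from the mean of the other arrays of its group at 869 bright probe sets (7.1%), 712 of them below, against 189 to 509 for the other young arrays.

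**Figure D1:**
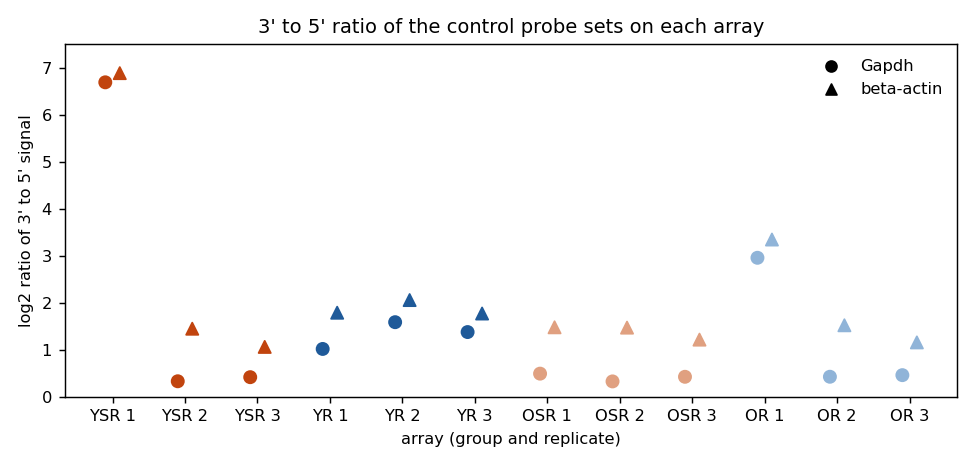
Each of the 12 arrays is shown with the log2 ratio between its 3' and its 5' control probe set, for Gapdh (circles) and for beta-actin (triangles), coloured by group. YSR array 1 stands at 6.69 and 6.88, the 3 YR arrays have Gapdh ratios of 1.02 to 1.59, and YSR arrays 2 and 3 have Gapdh ratios of 0.33 and 0.42.

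No gene passed the test that compared YSR with YR across the whole array. With limma (all 12 arrays in the fit, Benjamini-Hochberg adjustment over 31042 probe sets) 0 probe sets (0%) had an adjusted p under 0.05, and the smallest adjusted p was 0.9909. At an unadjusted p under 0.05, 1358 probe sets differed, 861 higher and 497 lower in YSR. Without YSR array 1, limma again gave 0 calls (0%), with a smallest adjusted p of 0.16 and 1535 probe sets at an unadjusted p under 0.05. The methods' t-test on the same 6 arrays gave 0 calls after adjustment and 1298 before it. At a linear fold above 2 it left 520 probe sets, of which 4 were bright and higher and 5 bright and lower in YSR. The differences below are therefore described by their values on each array, and none of them passed an adjusted test.

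Groups were called separated at a probe set when the lowest array of one lay above the highest of the other. With 3 arrays against 3, an exact permutation test of such a probe set cannot go below p = 0.1. Of the bright probe sets, 567 (4.63%) were separated with YSR higher and 494 (4.03%) with YSR lower, from 458 and 400 named genes. Together these shares did not exceed that of random order. Most of the gaps between the groups were small. The median difference was 0.33 for those higher and -0.28 for those lower, and 6 and 14 probe sets reached a difference of 1. Of the separated probe sets, 101 higher and 56 lower had a difference of at least 0.5 and an unadjusted limma p under 0.05.

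Leaving out YSR array 1 reduced these 157 to 96. The probe sets that still had an unadjusted p under 0.05 in the fit without that array are called kept here: 60 were higher in YSR (0.49% of bright probe sets) and 36 lower (0.294%). They carried 43 and 28 named genes. For comparison, 111 of the 157 remained when YSR array 2 was left out instead, 128 without YSR array 3, and 120, 108 and 102 without YR arrays 1, 2 and 3. The count was therefore lowest without the degraded array. Without it, the difference was still at least 0.5 in 54 of the 60 and in 31 of the 36. YSR array 1 was the YSR array nearest to the YR range in 21 of the 60 and 14 of the 36.

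**Figure D2:**
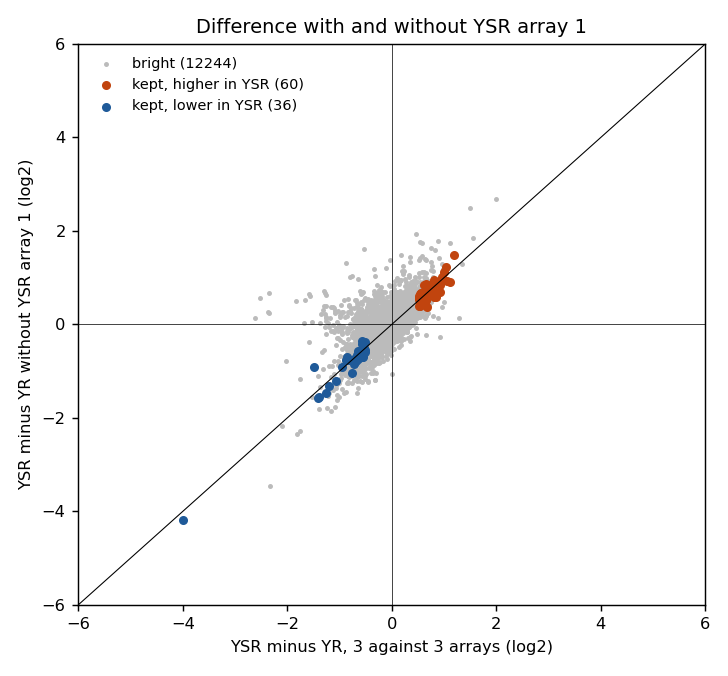
Each point is a bright probe set (12244), with the log2 difference YSR minus YR over all 6 young arrays on the x axis and the difference without YSR array 1 on the y axis, and a line of equal values. The 60 kept probe sets higher in YSR (orange) and the 36 lower in YSR (blue) lie near that line, and Ibsp is the single kept point near -4 on both axes.

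Among the kept probe sets with a higher signal in YSR were Itga5, Itgam, Actn1 and Glg1. Itga5, the alpha chain of the fibronectin receptor, had log2 signals of 10.78, 10.42 and 10.37 on YSR arrays 1 to 3 and 9.51, 9.58 and 9.32 on the YR arrays. The nearest arrays of the groups were 0.79 apart, the widest gap of the 60, and the difference was 1.05 (standard error 0.25), or 2.07-fold, and 0.92 without YSR array 1. Itgam, the alpha chain of the complement receptor of neutrophils and macrophages (CD11b), had 10.18, 11.11 and 10 in YSR and 9.80, 9.41 and 9.07 in YR. YSR array 2 was the highest, and the difference of 1.01 (standard error 0.44) was 0.67 without it. The 22 macrophage markers did not follow Itgam, since their mean signal was 12.69 to 12.82 in YSR and 12.65 to 12.83 in YR, and that of the 14 neutrophil markers was 8.72 to 9.07 and 8.40 to 10.10.

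Actn1 encodes an alpha-actinin that cross-links actin filaments. At its kept probe set it had 10.01, 10.60 and 10.69 in YSR and 9.96, 9.78 and 9.57 in YR, a difference of 0.66 (standard error 0.28). Its brighter probe set differed by -0.08, so that the 2 measurements of this gene did not agree. Glg1, a Golgi glycoprotein that binds E-selectin and fibroblast growth factors, had 9.19, 9.82 and 9.40 in YSR and 9.17, 8.30 and 8.49 in YR. Its groups were separated by 0.02, the narrowest gap of the 60. Of 32 measured genes of integrins, adhesion and cytoskeleton, 3 were separated with YSR higher (Itga5, Itgam and Flna) and 1 with YSR lower. Over all 14217 genes, 5.87% were separated with YSR higher and 3.66% with YSR lower. The median difference of the 32 was 0.04, and 0.09 without YSR array 1.

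Pfkl, Chst12, Selenow and Mmp19 were also kept with YSR higher. Pfkl, the liver form of phosphofructokinase in glycolysis, had 10.75, 10.88 and 10.70 in YSR and 10.01, 10.19 and 9.81 in YR, a difference of 0.78 (standard error 0.22). Of 29 genes of hypoxia and glycolysis it was 1 of 2 separated with YSR higher, and 0 were separated with YSR lower. Over all genes these shares were 5.87% and 3.66%. The median difference of the list was 0.05, and 0.08 without YSR array 1. Chst12, which adds sulfate to chondroitin, had 10.45, 10.48 and 10.41 in YSR and 9.90, 9.79 and 9.46 in YR, a difference of 0.73 (standard error 0.17). The YSR arrays of Chst12 had an SD of 0.04, with YSR array 1 between the others. Selenow, a small selenium-containing protein of redox metabolism, had 11.44, 11.74 and 11.73 in YSR and 10.98, 10.94 and 10.70 in YR, a difference of 0.76 (standard error 0.26). Mmp19, a matrix metalloproteinase, had 8.28, 8.42 and 8.64 in YSR and 7.83, 7.75 and 8.09 in YR, a difference of 0.55 (standard error 0.24).

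Pa2g4, Atf6 and Tle5 had kept probe sets higher in YSR too. Pa2g4, which binds the ErbB3 receptor and RNA and acts in cell growth, had 10.24, 10.44 and 10.30 in YSR and 9.27, 9.71 and 9.42 in YR. Its difference of 0.86 (standard error 0.17) was 0.90 without YSR array 1, and it lay between 0.76 and 0.98 under all alternatives. Its dimmer probe set, also bright, differed by 0.06. Atf6, a sensor of unfolded protein in the endoplasmic reticulum, had 9.81, 9.91 and 9.84 in YSR and 9.60, 8.94 and 8.44 in YR, and Tle5, a short corepressor of the Groucho family, had 9.80, 10.71 and 10.68 in YSR and 9.54, 9.48 and 8.61 in YR. For Atf6 the YSR arrays were close together and the YR arrays spread, and for Tle5 YSR array 1 was the lowest of its group.

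Ykt6 and Vps33a, which act in membrane fusion, Dcakd, named for a kinase domain of coenzyme A synthesis, Spryd3 and Palmd had differences of 0.62 (Ykt6) to 1.00 (Palmd). Palmd was a case apart among them. Of its 4 probe sets, 1 was separated with YSR higher and 2 were separated with YSR lower, with differences of -0.77 and -2.32 at the latter. Both of the latter were dim, and without YSR array 1 their differences were -0.62 and -0.54. For Vps33a, the brightest of its probe sets overlapped. Its difference was 0.38, and 0.13 without YSR array 1.

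**Figure D3:**
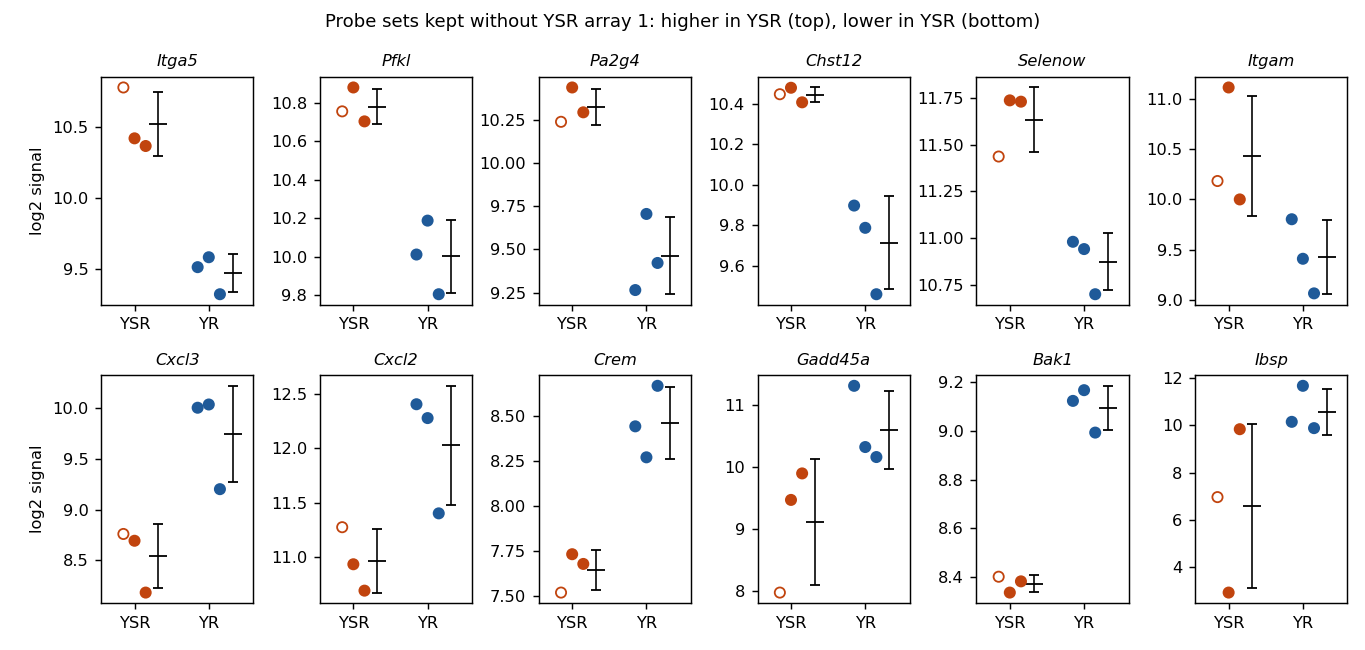
Log2 signal of 12 kept probe sets on the 3 YSR and 3 YR arrays (points), with the open circle for YSR array 1 and the bar for mean ± SD (n = 3); each panel has its own axis, which does not start at 0. In the upper row (Itga5, Pfkl, Pa2g4, Chst12, Selenow, Itgam) every YSR array lies above every YR array, and in the lower row (Cxcl3, Cxcl2, Crem, Gadd45a, Bak1, Ibsp) every YSR array lies below.

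Among the kept probe sets with a lower signal in YSR were a pair of chemokines that draw neutrophils through the receptor CXCR2. Cxcl2 had log2 signals of 11.28, 10.94 and 10.69 on YSR arrays 1 to 3 and 12.40, 12.28 and 11.40 on the YR arrays. YR array 3 was the nearest to YSR, and the difference was -1.06 (standard error 0.29), or 2.09-fold lower in YSR, and -1.21 without YSR array 1. Cxcl3 had at the third brightest of its 5 probe sets 8.76, 8.69 and 8.18 in YSR and 10.004, 10.04 and 9.20 in YR, a difference of -1.20 (standard error 0.26). The second brightest was also kept, with a difference of -0.96, while the brightest overlapped and differed by -0.43. The names of both kept probe sets of Cxcl3 mark probes that can match several transcripts, and the name of the brightest does not. Signal shared with close relatives was not tested.

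Of 29 measured chemokines and receptors, taken at the brightest probe set of each gene, 0 were separated with YSR higher and 2 with YSR lower (Cxcl2 and Cxcl12), against 5.87% and 3.66% of all 14217 genes, and the median difference was -0.03 against 0.02 for all genes. The median depended on the setting, at -0.18 without YSR array 1 and -0.11 after quantile normalization. Cxcl1, the third chemokine of the neutrophil-attracting set, had 9.96, 9.45 and 9.39 in YSR and 9.999, 9.69 and 9.57 in YR, so that its groups overlapped. Ccl2, which draws monocytes, overlapped as well, with 14.12, 13.86 and 13.43 against 13.77, 13.97 and 13.72. Of the neutrophil markers, 0 of 14 were separated. S100a8 had 12.06, 11.40 and 12.49 in YSR and 11.88, 14.08 and 11.69 in YR, with YR array 2 far above the rest.

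Genes of the inflammatory chemokines are classical targets of the transcription factor NF-kB, and the promoters of Cxcl1 and Cxcl2 are shown because one of the pair was separated and the other was not. The stretches, from RefSeq on build GRCr8, lie on the minus strand at chr14:17479370-17479429 (Cxcl1) and chr14:17467294-17467353 (Cxcl2), and are written 5′ to 3′ in the direction of the gene. Capitals mark the letters of an NF-kB type motif, GGNATTTCC, searched on both strands of the 250 bases before each gene start.
Cxcl1: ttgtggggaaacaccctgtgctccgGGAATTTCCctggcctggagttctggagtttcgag
Cxcl2: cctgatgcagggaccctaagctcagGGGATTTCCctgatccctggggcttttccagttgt
The motif began 83 bases before the start in Cxcl1 and 73 before it in Cxcl2. It was found in 380 of 33469 promoters (1.14%). Cxcl1 and Cxcl2 thus both carry these letters at a similar distance, with the differences of -0.16 and -1.06 given here for their signals.

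Crem, the cAMP response element modulator, was lower in YSR at 3 of its 6 probe sets. At the third brightest it had 7.52, 7.73 and 7.68 in YSR and 8.44, 8.27 and 8.67 in YR, a difference of -0.82 (standard error 0.24). At the second brightest the values were 7.76, 8.17 and 8.11 against 8.86, 8.84 and 8.98, a difference of -0.88. The brightest Crem probe set had 10.13, 9.86 and 9.79 against 10.40, 10.501 and 10.34, and its difference of -0.49 was just under the limit of 0.5. The other 3 probe sets of Crem overlapped between the groups, and all were dim.

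Crem is known for an internal promoter whose cAMP response elements let the gene answer to cAMP and to its own repressor products. RefSeq lists 3 starts for Crem in the table used, and the stretches of both that hold the element TGACGTCA in the 250 bases before the start are shown because the array cannot tell which start its transcripts used. They lie on the plus strand of GRCr8 at chr17:58984716-58984775 (start a) and chr17:58985430-58985489 (start b), with the element in capitals.
Crem start a: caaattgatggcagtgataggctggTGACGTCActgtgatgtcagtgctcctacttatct
Crem start b: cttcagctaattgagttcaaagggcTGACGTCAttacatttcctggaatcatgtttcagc
The element began 56 bases before start a and 35 before start b. It reads the same on both strands and was found in 531 of 33469 promoters (1.59%).

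Gadd45a, Bak1 and Casp8ap2 also had kept probe sets lower in YSR. Gadd45a, which is induced by DNA damage and other stress, had 7.97, 9.47 and 9.90 in YSR and 11.32, 10.33 and 10.16 in YR. YSR array 1 was the lowest and YR array 1 the highest, and the difference of -1.49 (standard error 0.43) was -0.92 without YSR array 1, over 1.5 times smaller. Bak1, a pore-forming protein of apoptosis, had 8.40, 8.34 and 8.38 in YSR and 9.12, 9.17 and 8.99 in YR, a difference of -0.72 (standard error 0.24). Both groups of Bak1 were narrow, with SDs of 0.03 and 0.09. Casp8ap2, which binds caspase 8, had 8.66, 8.09 and 8.68 in YSR and 9.08, 9.18 and 8.998 in YR, while its brighter probe set differed by -0.04.

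The largest difference among the kept probe sets belonged to a bone gene and was carried by single arrays. Ibsp, bone sialoprotein of mineralizing matrix, had 6.97, 2.93 and 9.84 in YSR and 10.15, 11.67 and 9.88 in YR. YSR array 3 was only 0.05 below YR array 3, and the difference of -3.99 (standard error 1.51) was -2.17 without YSR array 2. Of the 12 measured genes of osteoblasts and bone matrix 1 was separated higher (Col1a1) and 1 lower (Ibsp). Over all genes these shares were 5.87% and 3.66%. The median difference of the 12 was -0.29. Alpl, the alkaline phosphatase of bone, overlapped, with 3.98, 5.67 and 6.81 against 7.09, 7.32 and 6.23.

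Hba-a3, Ncoa4 and Ybx3 were kept with YSR lower. Hba-a3, an alpha chain of hemoglobin, had 14.69, 14.19 and 14.68 in YSR and 15.18, 15.43 and 14.89 in YR, a difference of -0.65 (standard error 0.19). Ncoa4, which releases iron from ferritin, had 13.65, 12.88 and 13.76 in YSR and 13.89, 14.20 and 13.86 in YR, and Ybx3, an RNA-binding protein abundant in erythroid cells, had 13.90, 12.97 and 14.09 against 14.24, 14.73 and 14.15. In all 3 YSR array 2 was the lowest of the 6 arrays and YR array 2 the highest. Hemoglobin alpha genes are near-identical copies, so that Hba-a3 may also report the others.

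The erythroid markers were also lowest on YSR array 2, but they were highest on YSR array 3. Of 9 measured, 8 were lower in YSR by mean, 0 were separated, and the median difference was -0.87, or -0.58 without YSR array 1. Their mean signal was 10.20, 9.38 and 12.25 on YSR arrays 1 to 3 and 10.93, 12.06 and 10.87 on YR arrays 1 to 3. The groups thus overlapped. The part of red cell content in the lower signals of Hba-a3, Ncoa4 and Ybx3 was not tested.

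Further genes with lower signals in YSR included RT1-CE5, a class I antigen-presenting molecule, with 8.30, 7.38 and 7.89 against 8.67, 9.41 and 9.25. Class I genes of the rat are many and similar, and the other 4 probe sets of RT1-CE5 overlapped. Stfa2l2, of the stefin family of cysteine protease inhibitors, had 9.54, 8.93 and 9.28 in YSR and 10.37, 11.82 and 9.77 in YR. YR array 2, on which the neutrophil markers were highest (mean 10.10), was also the highest for Stfa2l2, and the part of neutrophil content in its difference was not tested. G0s2, an inhibitor of fat breakdown, had 9.79, 9.80 and 9.22 in YSR and 10.25, 10.503 and 10.14 in YR, a difference of -0.69 (standard error 0.26). Mon1b, Mllt1 and Ift57 had differences of -0.77, -0.57 and -0.56. The brightest probe set of Mllt1 overlapped and differed by 0.20, the other way.

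Second probe sets of the same genes gave weaker values. Of the 43 genes kept with YSR higher, 12 had another bright probe set that was not kept, 17 in all, of which 12 had the same sign and 0 were separated the same way, with a median difference of 0.06. Of the 28 genes kept with YSR lower, 12 had such probe sets, 15 in all, of which 12 had the same sign and 1 was separated the same way (Crem), with a median of -0.10. A gene had more than 1 kept probe set in 1 case among the higher (Cebpa, a transcription factor of myeloid cells and adipocytes, named after its values were seen) and in 2 among the lower (Crem and Cxcl3).

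Gene lists were described by their members at the brightest probe set of each gene, with no test of the list. Over all 14217 genes, 835 (5.87%) were separated with YSR higher and 520 (3.66%) with YSR lower, and 46.9% had a lower mean in YSR. Of the 32 lists, interferon response, ribosomal proteins, heat shock and unfolded protein response and mitochondrial respiratory chain had the most members separated with YSR lower, with 4 or 5 each.

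Interferons act on cells through STAT proteins that switch on a set of antiviral genes. Of 21 measured members of this set, 19 had a lower mean in YSR (90.5%), 5 were separated with YSR lower (Stat2, Mx2, Ifit2, Oas1a and Ifi27) and 0 with YSR higher. The median difference was -0.19, and -0.21 without YSR array 1. Mx2, an antiviral GTPase, had 9.58, 9.62 and 9.38 in YSR and 10.39, 9.67 and 10.75 in YR, and Ifi27, an interferon-induced mitochondrial protein, had 12.70, 13.12 and 12.96 against 13.22, 13.27 and 13.64. Oas1a, which makes a messenger that activates an RNase, had 7.86, 7.88 and 8.01 against 8.14, 8.28 and 9.05. The gaps between the groups at these 3 genes were 0.05, 0.10 and 0.14, and none was kept. A second bright probe set of Mx2 overlapped, with a difference of -0.77. Isg15 overlapped, with 8.06, 8.96 and 9.41 in YSR and 9.57, 9.28 and 10.09 in YR. The mean signal of all 21 genes was 9.68, 9.93 and 9.86 in YSR and 10.11, 10.10 and 10.14 in YR, so that it did not overlap between the groups. In the old rats the same mean did overlap, with 10.09, 9.63 and 9.91 in OSR and 9.71, 10.25 and 10.56 in OR.

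Ribosomal proteins had a lower mean in YSR in 15 of 16 members, with 4 separated with YSR lower. The median difference was -0.17, and -0.07 after quantile normalization, so that its size depended on the scaling. Rpl18 had 14.37, 14.44 and 14.38 in YSR and 14.64, 14.80 and 14.58 in YR, a difference of -0.28. Of 24 genes of the mitochondrial respiratory chain, 19 had a lower mean in YSR and 4 were separated with YSR lower, with a median of -0.07. Ndufv1, a subunit of complex I, had 11.28, 11.29 and 11.26 in YSR and 11.45, 11.45 and 11.41 in YR. The means of both lists overlapped between the groups, with 13.99, 14.12 and 13.89 in YSR and 14.12, 14.20 and 14.09 in YR for ribosomal proteins, and 12.05, 11.96 and 11.92 against 12.05, 12.01 and 12.09 for the respiratory chain.

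The heat shock and unfolded protein response list had members on both sides. Of 22, 18 had a lower mean in YSR, 5 were separated with YSR lower and 2 with YSR higher. Hspa1a, an inducible heat shock chaperone, had 10.06, 10.46 and 10.66 in YSR and 10.99, 10.995 and 10.74 in YR, and Ddit3, a transcription factor induced by stress of the endoplasmic reticulum, had 9.52, 9.43 and 9.31 against 9.69, 10.12 and 9.63. Herpud1, which helps to degrade misfolded proteins of the endoplasmic reticulum, went the other way, with 10.80, 10.78 and 11.08 in YSR and 10.36, 10.33 and 10.51 in YR.

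**Figure D4:**
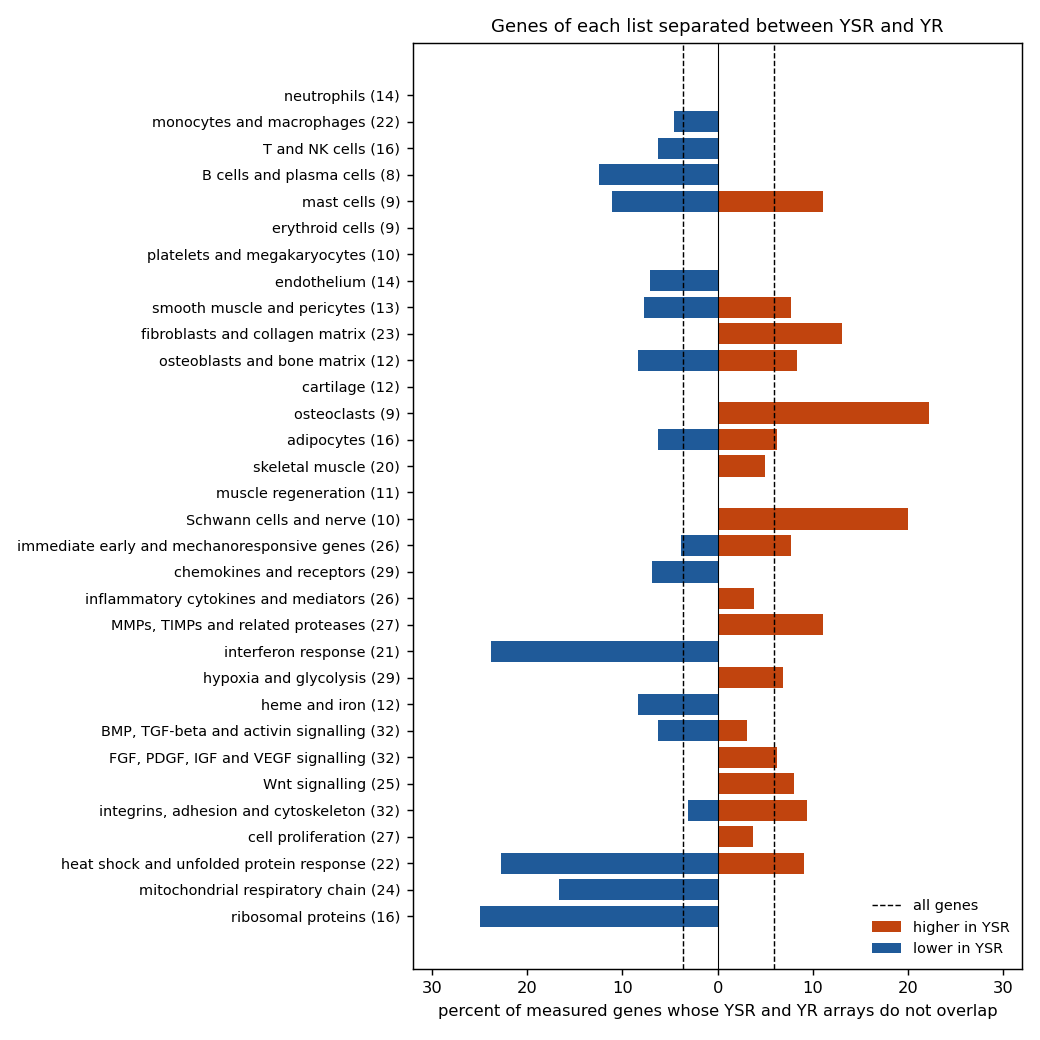
For each of the 32 gene lists (number of measured genes in brackets), bars give the percent of genes separated with YSR higher (right) and with YSR lower (left), and dashed lines give the values for all 14217 genes, 5.87% and 3.66%. Interferon response (5 of 21), ribosomal proteins (4 of 16) and heat shock (5 of 22) reach farthest to the left, and the long bars on the right (osteoclasts, Schwann cells and nerve) rest on 2 genes each.

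Most matrix genes lay on the other side by their means. Of 23 markers of fibroblasts and collagen matrix, 18 had a higher mean in YSR. Separated were 3 with YSR higher and 0 with YSR lower, against 5.87% and 3.66% of all genes. The median difference was 0.08, and 0.15 after quantile normalization. Bgn, the proteoglycan biglycan, had 11.34, 11.79 and 11.77 in YSR and 10.97, 11.13 and 11.29 in YR. Col1a1, the main chain of type I collagen, had 14.50, 14.66 and 14.56 in YSR and 14.06, 14.00 and 14.35 in YR at the brighter of its 2 probe sets, and overlapped at the other. Col6a2, a chain of type VI collagen, had 11.51, 11.48 and 11.51 in YSR and 11.09, 10.41 and 11.17 in YR. YR array 2 was the lowest of the young arrays for Col1a1 and Col6a2. The mean of the list was lowest there too, at 12.05 against 12.40 and 12.77 on the other YR arrays. In YSR it was 12.52 to 12.60, so that the groups overlapped. In the old rats the median difference of the list, OSR minus OR, was -0.3.

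Proteases of the matrix and of bone resorption had a few separated members. Of 27 MMPs, TIMPs and related proteases 3 were separated with YSR higher and 0 with YSR lower. Over all genes, 5.87% were separated with YSR higher and 3.66% with YSR lower. The 3 were Mmp14, a membrane-bound collagenase, Mmp19 and the inhibitor Timp2. Timp2 differed by only 0.13 (standard error 0.14), with a gap of 0.01 between the groups. Mmp14 had 12.40, 11.96 and 12.04 in YSR and 11.47, 11.58 and 11.11 in YR, while its second bright probe set differed by -0.02. Acp5 and Ctsk, the acid phosphatase and the collagen-degrading cathepsin of osteoclasts, were separated with YSR higher in a list of 9. Neither was kept. Of the 9, 4 had a lower mean in YSR. By limma 1 lower and 0 higher members had an unadjusted p under 0.05. Acp5 had 10.56, 11.04 and 10.67 against 10.16, 10.27 and 10.34, and Ctsk had 12.44, 13.29 and 12.60 against 12.29, 12.30 and 12.32. The mean of the osteoclast list overlapped, at 8.96 to 9.87 in YSR and 9.17 to 9.72 in YR.

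Genes that answer quickly to growth factors and to stretch were measured because movement of the bone ends differed by design. Of 26 immediate early and mechanoresponsive genes, 2 were separated with YSR higher (Fos and Egr2) and 1 with YSR lower (Ier3). Over all genes, 5.87% were separated with YSR higher and 3.66% with YSR lower. The median difference of the 26 was 0.03, and 0.09 without YSR array 1. Fos, a subunit of the transcription factor AP-1, had 11.97, 11.75 and 11.63 in YSR and 11.39, 11.02 and 11.30 in YR. Its difference of 0.55 (standard error 0.24) was 0.46 without YSR array 1, where it missed the unadjusted threshold, so that it was not kept. Wnt signalling had 2 of 25 genes separated, both higher in YSR: Sfrp4, a secreted inhibitor of Wnt, with 10.10, 9.30 and 9.65 against 8.87, 8.54 and 9.07, and Sfrp1, with 9.56, 9.63 and 9.70 against 9.28, 8.51 and 9.49. Fst, the activin-binding protein follistatin, had 9.23, 9.17 and 9.004 in YSR and 9.54, 9.48 and 9.63 in YR at its brighter probe set. Its other bright probe set overlapped and differed by -0.21. Of 32 genes of BMP, TGF-beta and activin signalling, 1 was separated with YSR higher and 2 with YSR lower, with a median difference of -0.05.

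Skeletal muscle markers differed widely between arrays of the same group. Their mean was 11.51, 10.10 and 9.77 in YSR and 11.23, 10.49 and 10.35 in YR, so that the groups overlapped, and 1 of 20 was separated (Pvalb, a calcium-binding protein of fast fibres, higher in YSR). Of cartilage, platelets and megakaryocytes and muscle regeneration, 0 genes were separated in either direction.

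Old rats gave a second comparison of the same fixators. Their arrays do not enter the difference YSR minus YR, but in the fit of 12 arrays they share in the estimate of spread behind the p that chose the kept probe sets. Of the 60 probe sets kept with YSR higher, 42 (70.0%) had a higher mean in OSR than in OR, against 48.7% of all bright probe sets, with a median difference of 0.24. Of the 36 kept with YSR lower, 21 (58.3%) had a lower mean in OSR, against 51.3% of all bright probe sets, with a median of -0.06. Without OR array 1 the counts were 47 of 60 and 22 of 36.

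Cxcl2 and Cxcl3 were among those with the same sign at both ages. Cxcl2 had 10.78, 10.68 and 11.16 in OSR and 11.79, 12.10 and 11.09 in OR, a difference of -0.79, and OSR array 3 lay just above OR array 3. Cxcl3, at the third brightest probe set, had 8.31, 7.96 and 7.97 in OSR and 9.19, 9.44 and 8.78 in OR and did not overlap. Pfkl had 10.39, 10.97 and 10.55 in OSR and 9.28, 9.77 and 10.24 in OR, and also did not overlap. For Crem, at the third brightest probe set, the old groups overlapped, with means of 8.35 in OSR and 8.24 in OR. For Bak1 they overlapped too, with means of 8.81 and 8.60. Both pairs of means were in the opposite order to the young rats, but OR array 1 was the lowest old array at both genes. Bak1 had 8.64, 9.23 and 8.55 in OSR and 8.07, 8.92 and 8.80 in OR. Crem had 8.02, 8.47 and 8.56 against 7.79, 8.49 and 8.44. Without OR array 1 the order of the means was that of the young rats.

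Whether the difference between fixators itself differed with age was tested as an interaction, YSR minus YR less OSR minus OR. With limma 0 probe sets (0%) had an adjusted p under 0.05, with a smallest adjusted p of 0.9776, and 1181 had an unadjusted p under 0.05. By limma the interaction of Crem at the third brightest probe set came to -0.92 with an adjusted p of 0.9902, and that of Bak1 to -0.93 with the same adjusted p. A difference between the ages was thus not shown for any gene by this adjusted test. The study itself reports such interactions for genes preselected from its PLIER values, by analysis of variance at p under 0.05. It also reports them for Mmp9 and Mmp13 by PCR. Those are other values and another threshold than used here.

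RNA quality moved with part of these results. When both YSR array 1 and OR array 1, the 2 arrays of highest Gapdh ratio, were left out, limma called 27 probe sets (0.087%) at an adjusted p under 0.05, all with YSR higher, of which 13 were bright by the mean of the 6 arrays. Their names are given after their values were seen. They included Syngr2, a vesicle membrane protein, with 6.09, 9.67 and 9.93 on YSR arrays 1 to 3 and 8.07, 8.16 and 7.85 on the YR arrays, and Rab1b, a GTPase of secretory transport, with 7.58, 10.34 and 10.31 against 8.79, 8.31 and 8.50. Tgfb1, the cytokine TGF-beta 1, had 8.50, 10.67 and 10.49 against 8.57, 8.06 and 7.05, and Ifnar1, a chain of the type I interferon receptor, had 6.77, 9.36 and 9.30 against 7.92, 7.92 and 8.04. YSR arrays 2 and 3 were high together, and YSR array 1 was the lowest of the 6 arrays in 20 of the 27. Over all 12244 bright probe sets it was the lowest at 2514.

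At these 27 probe sets the arrays fell into the same broad classes as by their Gapdh ratio, without the same order within a class. Relative to the mean of the YR arrays, their median signal was -1.18 on YSR array 1, 1.96 and 1.84 on YSR arrays 2 and 3, and -0.67 on OR array 1. On the 5 old arrays with a Gapdh ratio under 0.5, both semi-rigid and rigid, it was between 1.33 and 1.84. In 26 of the 27 all 5 of those arrays lay above all 3 YR arrays (96.3%, against 2.77% of all bright probe sets). The same was so for 14 of the 60 probe sets kept with YSR higher (23.3%) and 12.3% of all bright probe sets separated with YSR higher. Of all bright probe sets, 3.18% had those 5 old arrays below all YR arrays. This order held in 5 of the 36 kept with YSR lower (13.9%) and in 79 of all 494 bright probe sets separated with YSR lower (16%). These sets were chosen for YR arrays at one end of the range, which fixes such shares in part. The part of RNA quality in these differences was not tested.

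**Figure D5:**
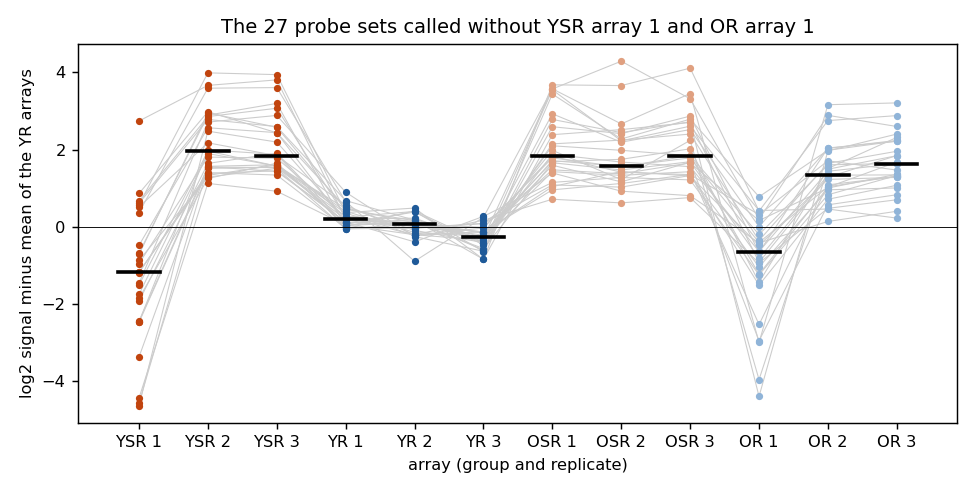
Log2 signal of the 27 probe sets called without YSR array 1 and OR array 1, relative to the mean of the 3 YR arrays, on each of the 12 arrays (grey lines join a probe set, black bars are medians). YSR array 1 (median -1.18) and OR array 1 (-0.67) lie below the YR arrays, and the arrays with a Gapdh ratio under 0.5 in YSR, OSR and OR lie above them (1.33 to 1.96).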

How the data were processed

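Per the labels, total RNA of 3 animals was pooled for each array of fracture hematoma, and 12 arrays in 4 groups of 3 were hybridised. The authors deposited linear signal intensity values for 31099 probe sets, each array scaled to a trimmed mean of 500.2, with GCOS 1.2 named in the submitters' processing notes. The study's methods name another summary (PLIER), and the scan files were not used here. Precision was limited by the number of arrays.

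Values below a floor of 1 were set to 1 before log2 was taken. Symbols came from the platform annotation, where 20826 tested probe sets had 1 symbol, 436 several and 9780 none, and 20758 were matched by identifier to RefSeq genes of build GRCr8. YSR minus YR was fitted by limma 3.58.1 (lmFit, then eBayes with an intensity trend; 12 arrays, 4 group means) in R 4.3.3 with data.table (version 1.17.8), tested on simulated data, and without YSR array 1 (11 arrays), with Benjamini-Hochberg adjustment. Kept probe sets were bright, separated, with a difference of at least 0.5 over the 6 young arrays and an unadjusted p under 0.05 in both fits. Named were the 15 kept genes of largest difference without YSR array 1 in each direction, up to 3 bright separated members of each of 32 lists, up to 2 members without separation of lists described, and the control probe sets; other names, such as Stat2, Ifit2, Pvalb and Cebpa, were chosen after their values were seen. The members and lists were chosen with earlier results of these data known. Alternatives were quantile normalization, a pseudocount of 16, a filter at the median (7.16), no trend, only the young arrays, array weights, a replicate block, the methods' t-test, other brightness limits and leaving out arrays. The interaction without YSR array 1 and OR array 1, and the kept counts without OR array 1, were added after seeing the data. Figures and promoter searches used Python 3.11.15, matplotlib 3.10.9, pandas 2.3.3 and numpy 2.4.6.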

Additional observations from a re-analysis of the deposited data

How the results depend on the processing

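The 0 calls of limma at an adjusted p under 0.05 held under quantile normalization, the pseudocount of 16, the filter on dim probe sets, no trend, array weights, only the young arrays and the leaving out of any 1 young array. Calls appeared in 2 settings, with 27 without YSR array 1 and OR array 1, and 2 without YSR array 1 when only the young arrays were fitted. The interaction gave 0 calls in every alternative run. At a brightness limit of 10, 177 bright probe sets were separated with YSR higher and 224 with YSR lower. Leaving out 1 young array gave 943 to 1512 higher and 877 to 1350 lower, where 2 arrays against 3 overlap less often by construction. The kept probe sets higher in YSR numbered 38 without the intensity trend, 93 at a brightness limit of 7 and 15 at a limit of 10, and those lower numbered 55 with only the young arrays and 6 at a limit of 10. The cause was not tested, except that a higher limit leaves fewer probe sets. No named probe set changed sign in the 938 values recomputed, but the choice of separated groups fixes that in part. Without YSR array 1 the median was -0.58 for the erythroid markers, -0.18 for chemokines and receptors, and 0.09 for the immediate early and the integrin lists, and that of the ribosomal proteins was -0.07 after quantile normalization.

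Arrays that share a replicate number were not treated as pairs. The labels do not say whether arrays of one number were processed together. The arrays of highest Gapdh ratio, YSR array 1 (6.69) and OR array 1 (2.96), both carry the number 1. Deviations from the group means had a median correlation of 0.02 over the 18 pairs of the same number and of 0.02 over the other 36, and for YSR and YR it was 0.03, -0.17 and 0.04. With the replicate number as a block, limma made 0 calls, and 52 probe sets higher and 36 lower in YSR were kept. With 3 pools a group, differences smaller than the spread between pools could not be detected.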
